A study of Mus musculus with 8 samples.

Results

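The 8 genes Cdkn1a, Cdkn1b, Cdkn1c, Rb1, Ccnd1, Ccnd2, Ccnd3 and Myc govern whether a myoblast stays in the cell cycle or leaves it, and the data describe where myogenin and p300 were called on the chromatin around them. An interval, that is the span of a called ChIP-seq peak, belonged to a gene when at least 1 bp of it lay within 50 kb of the gene body in the GENCODE annotation of the mouse genome build mm9. By this rule 74 of the 43759 intervals in the 4 peak lists belonged to the 8 genes. The 22380 protein-coding genes of the annotation, counted in the same way, were the background.

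The cells were C2C12, an established mouse myoblast line labelled as strain C3H, moved from growth medium to a differentiation medium with 2% horse serum for 24 h. Control cells (Ctl) received no drug, and treated cells (Bex) received 50 nM bexarotene, an agonist of the retinoid X receptor, from the start of differentiation. Myogenin, the muscle regulatory factor of terminal differentiation, and p300, a histone acetyltransferase and coactivator, were each measured by ChIP-seq in 1 library per condition, so that no test between conditions exists and no replicate spread is known. Peak lists of 4 of the 8 samples were used, which hold positions without tag counts, so that the height of a peak is not known.

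Myoblasts withdraw from the cell cycle before they express the contractile genes and fuse. Cdkn1a, Cdkn1b and Cdkn1c encode p21, p27 and p57, inhibitors of cyclin-dependent kinases, and Rb1 encodes the retinoblastoma protein, which holds E2F factors inactive while it is not phosphorylated. Cyclins D1, D2 and D3, encoded by Ccnd1, Ccnd2 and Ccnd3, activate the kinases that phosphorylate the retinoblastoma protein; cyclin D3, unlike cyclin D1, is known to accumulate in differentiating myoblasts. Myc is a growth factor-responsive transcription factor that drives proliferation.

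The stretches that several lists had in common at these genes are given first, from the + strand of mm9, 5′ to 3′, with the myogenin E-box (CAGCTG, or CACCTG and its reverse complement CAGGTG) in capitals. They are shown for shared myogenin regions that overlap p300 and for intervals with 4 E-boxes. Stretches that touch an annotated exon are left out. The region in intron 4 of Ccnd3 is left out as well, because its 3 lists had no stretch in common. Upstream of Cdkn1a, 4 are shown: the first and second were common to both myogenin lists and p300 Ctl, and the last 2 to all 4 lists.
Cdkn1a, -40.0 kb, chr17:29187896-29188118: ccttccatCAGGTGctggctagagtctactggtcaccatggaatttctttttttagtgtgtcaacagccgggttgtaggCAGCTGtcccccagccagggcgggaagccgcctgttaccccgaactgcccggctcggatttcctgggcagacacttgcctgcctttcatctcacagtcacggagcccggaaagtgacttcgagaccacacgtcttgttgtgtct
Cdkn1a, -37.0 kb, chr17:29190860-29191010: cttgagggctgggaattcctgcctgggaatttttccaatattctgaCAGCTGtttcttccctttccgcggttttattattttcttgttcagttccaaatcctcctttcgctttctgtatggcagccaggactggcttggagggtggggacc
Cdkn1a, -34.6 kb, chr17:29193225-29193382: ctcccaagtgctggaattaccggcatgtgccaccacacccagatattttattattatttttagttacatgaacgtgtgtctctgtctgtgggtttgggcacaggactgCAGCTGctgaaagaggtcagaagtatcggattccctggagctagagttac
Cdkn1a, -34.0 kb, chr17:29193696-29193993: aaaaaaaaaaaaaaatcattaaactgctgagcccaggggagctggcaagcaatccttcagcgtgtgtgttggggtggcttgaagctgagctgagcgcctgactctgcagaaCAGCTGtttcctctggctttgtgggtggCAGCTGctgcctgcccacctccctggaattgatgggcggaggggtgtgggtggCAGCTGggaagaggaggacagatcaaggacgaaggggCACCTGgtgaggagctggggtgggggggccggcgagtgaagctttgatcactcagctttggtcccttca
In the Rb1 gene, 1 stretch was common to both myogenin lists and p300 Bex.
Rb1, 11.7 kb, chr14:73713773-73713928: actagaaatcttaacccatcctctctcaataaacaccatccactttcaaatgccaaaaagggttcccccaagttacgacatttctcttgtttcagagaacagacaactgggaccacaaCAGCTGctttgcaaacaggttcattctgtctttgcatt
In the Ccnd3 gene, the first stretch was common to both myogenin lists and p300 Bex, the second to both myogenin lists and p300 Ctl, and the third, in which the Ctl interval had 4 E-boxes and the Bex interval 3, to both myogenin lists.
Ccnd3, 6.4 kb, chr17:47648334-47648394: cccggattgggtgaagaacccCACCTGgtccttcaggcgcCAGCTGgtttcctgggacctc
Ccnd3, 16.9 kb, chr17:47658741-47658875: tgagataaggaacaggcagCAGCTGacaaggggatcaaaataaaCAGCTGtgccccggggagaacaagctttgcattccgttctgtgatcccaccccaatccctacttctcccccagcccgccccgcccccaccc
Ccnd3, 18.4 kb, chr17:47660248-47660504: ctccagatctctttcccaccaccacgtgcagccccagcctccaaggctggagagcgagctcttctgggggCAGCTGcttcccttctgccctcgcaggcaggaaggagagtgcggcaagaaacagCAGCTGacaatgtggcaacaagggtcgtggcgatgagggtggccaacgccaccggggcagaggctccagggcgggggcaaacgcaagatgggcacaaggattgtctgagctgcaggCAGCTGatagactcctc

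A second set shows whole intervals called in 1 condition within 1 kb of a coding start of the 8 genes, since a different position in each condition next to a start was seen at Myc. Intervals that touch an exon are not shown.
Cdkn1a, myogenin Ctl, chr17:29234361-29234595: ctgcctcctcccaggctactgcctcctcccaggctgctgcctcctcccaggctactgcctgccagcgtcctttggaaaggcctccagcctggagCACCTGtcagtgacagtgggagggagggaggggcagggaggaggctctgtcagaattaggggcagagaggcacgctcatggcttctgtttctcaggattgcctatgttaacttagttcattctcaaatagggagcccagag
Cdkn1b, p300 Ctl, chr6:134870187-134870345: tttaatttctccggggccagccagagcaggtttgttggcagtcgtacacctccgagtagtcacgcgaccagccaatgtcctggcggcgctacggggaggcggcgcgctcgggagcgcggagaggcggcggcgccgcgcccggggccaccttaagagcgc
Myc, myogenin Bex, chr15:61815883-61816050: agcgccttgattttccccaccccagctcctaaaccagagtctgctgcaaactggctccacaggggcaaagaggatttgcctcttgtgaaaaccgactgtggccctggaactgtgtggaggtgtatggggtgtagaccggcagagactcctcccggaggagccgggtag
Myc, myogenin Ctl, chr15:61816313-61816484: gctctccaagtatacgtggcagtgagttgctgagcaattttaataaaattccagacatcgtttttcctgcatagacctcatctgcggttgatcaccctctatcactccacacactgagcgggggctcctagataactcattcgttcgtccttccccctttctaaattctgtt
Myc, p300 Bex, chr15:61816456-61816613: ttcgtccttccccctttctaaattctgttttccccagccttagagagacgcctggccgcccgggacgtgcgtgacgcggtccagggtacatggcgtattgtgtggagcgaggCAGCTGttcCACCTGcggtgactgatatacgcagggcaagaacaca
Myc, p300 Ctl, chr15:61816693-61816851: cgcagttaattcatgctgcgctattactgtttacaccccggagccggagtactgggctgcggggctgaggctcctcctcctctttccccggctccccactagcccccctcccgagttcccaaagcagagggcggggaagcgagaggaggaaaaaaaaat

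The lists differed in size, with 5912 myogenin intervals in Ctl, 6642 in Bex, 22051 p300 intervals in Ctl and 9154 in Bex. Each list had a smallest length, between 158 and 172 bp, at which 34.3% to 54.8% of its intervals stood. As a check of the cell label, 8 of 10 muscle genes (Myog, Myod1, Ckm, Des, Acta1, Chrna1, Mef2c, Myh3, Tnnt2 and Tnni1) had a myogenin interval within 50 kb in Ctl and 7 in Bex, beside 32.4% and 33.0% of protein-coding genes. Ckm and Mef2c had none in either list, and Des had none in Bex. The lists hold no expression values, so neither transcript nor protein levels of the 8 genes were measured here.

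Within 50 kb, myogenin was called around the CDK inhibitor gene Cdkn1a and the cyclin D3 gene Ccnd3 more than around any other of the 8 genes, in both conditions, whereas Cdkn1c and Ccnd2 had no interval of any list. For Cdkn1a this rests on sites more than 25 kb away: within 25 kb it had 2 myogenin intervals in Ctl and 1 in Bex, the same as Rb1 and Myc, while Ccnd3 kept 6 and 5. Myogenin intervals numbered 20 in Ctl and 17 in Bex, and p300 intervals 23 and 14. Of the 8 genes, 5 had a myogenin interval in Ctl and 5 in Bex, where 32.4% and 33.0% of protein-coding genes had one. For p300 the counts were 6 genes in Ctl and 5 in Bex, beside 53.7% and 35.2% of protein-coding genes. When only intervals longer than the smallest of their list were kept, 3 genes had myogenin in Ctl and 3 in Bex, beside 17.7% and 19.3% of protein-coding genes, and 5 had p300 in Ctl and 3 in Bex, beside 41.2% and 20.2%. Cdkn1a, Rb1, Ccnd3 and Myc had at least 1 interval of every list, as did 14.7% of protein-coding genes, and the 2 genes without any interval stand beside 36.0% of protein-coding genes in the same state. With 8 genes these counts are a description, and the windows differ in length because the gene bodies do, from 103.0 kb for Cdkn1c to 242.0 kb for Rb1.

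**Figure D1:**
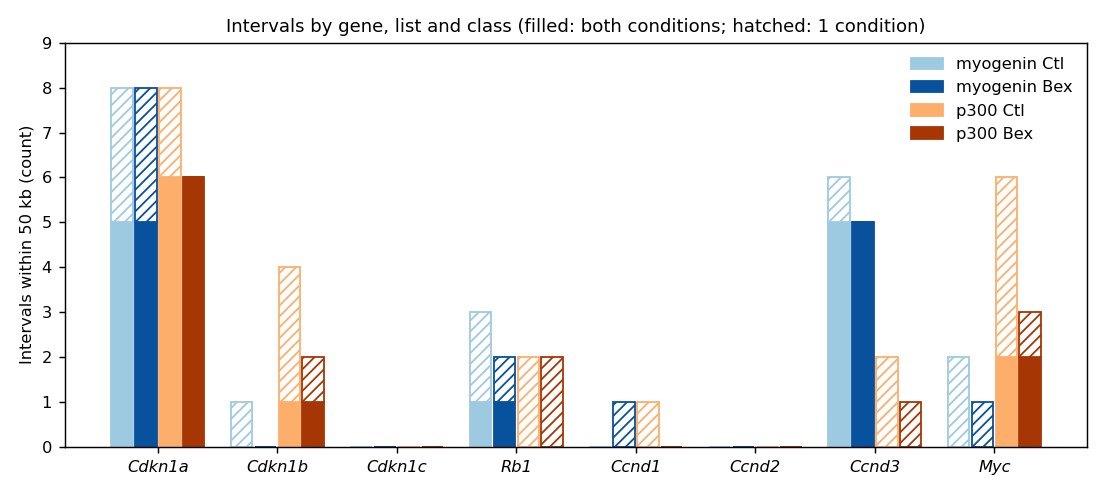
Number of intervals within 50 kb of each of the 8 genes (vertical axis, count) for myogenin and p300 in Ctl and Bex, with filled bars for intervals called in both conditions and hatched bars for those called in 1. Cdkn1a reached 8, 8, 8 and 6 intervals, and Cdkn1c and Ccnd2 had none.

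Per 100 kb of window, the 8 genes together held 1.83 myogenin intervals in Ctl and 1.55 in Bex, against 0.313 and 0.345 over the windows of all protein-coding genes. For p300 the densities were 2.1 in Ctl and 1.28 in Bex, against 1.05 and 0.432. The number called in Bex divided by that in Ctl was 0.85 for myogenin near the 8 genes and 1.12 over the whole lists. For p300 it was 0.609 near the 8 genes and 0.415 over the whole lists, so fewer p300 intervals were called in Bex both here and genome-wide. Without Cdkn1a the counts were 12, 9, 15 and 8 in place of 20, 17, 23 and 14, which shows how much of each total comes from that gene.

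When overlapping myogenin intervals of the 2 conditions were merged, 26 regions resulted, of which 11 were shared (42.3%, 95% Wilson interval 25.5 to 61.1), 9 were unique to control (34.6%, 19.4 to 53.8) and 6 unique to bexarotene (23.1%, 11.0 to 42.1). Over the series the shares were 31.3%, 30.6% and 38.2%. For p300, 28 regions comprised 9 shared (32.1%, 17.9 to 50.7), 14 unique to control (50.0%, 32.6 to 67.4) and 5 unique to bexarotene (17.9%, 7.88 to 35.6), beside 30.1%, 62.1% and 7.76% over the series. These Wilson intervals cover counting error only and treat regions of 1 gene as independent, which they are not. Each myogenin and p300 share of the series lay within the Wilson interval of the corresponding share near the 8 genes, except that of p300 regions unique to bexarotene, whose 7.76% lay just below the lower bound.

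Positions relative to the gene are given by class. The 11 shared myogenin regions comprised 5 upstream of a gene and 6 in a gene body, and the 9 unique to control comprised 2 upstream, 5 in a gene body and 2 downstream. Of the 6 unique to bexarotene, 5 were upstream, 1 was downstream and 0 lay in the body of the gene itself. Over the whole myogenin lists, 51.7% of shared intervals in Ctl, 58.8% of control-only and 55.9% of bexarotene-only intervals were centered in a gene body. Those shares take the body of every coding gene, whereas the counts above take only the gene itself. Of the bexarotene-only intervals, that at -44.0 kb of Rb1 lay inside Itm2b and that near Ccnd1 inside Oraov1. A difference between classes was not tested. Among myogenin intervals unique to control, 8 of 9 had the smallest length of their list, as did 4 of the 6 unique to bexarotene, whereas 0 of the 11 shared intervals in Ctl and 2 of 11 in Bex did. In the whole lists the shares were 75.6% for control-only, 69.7% for bexarotene-only, and 34.4% and 26.1% for shared intervals in Ctl and Bex. Within 1 kb of the start of a coding transcript of the 8 genes there were 3 myogenin intervals in Ctl and 1 in Bex, and 3 p300 intervals in Ctl and 1 in Bex, all of them called in 1 condition. Without Myc these counts were 1, 0, 1 and 0, and with the starts of all transcripts the p300 count in Ctl was 4. Over the whole lists, 39.8% of control-only and 15.4% of bexarotene-only myogenin intervals lay within 1 kb of a coding start, against 8.92% and 8.91% of shared intervals in Ctl and Bex. For p300 these shares were 12.4% of control-only and 29.8% of bexarotene-only intervals, against 8.12% and 7.93%.

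**Figure D2:**
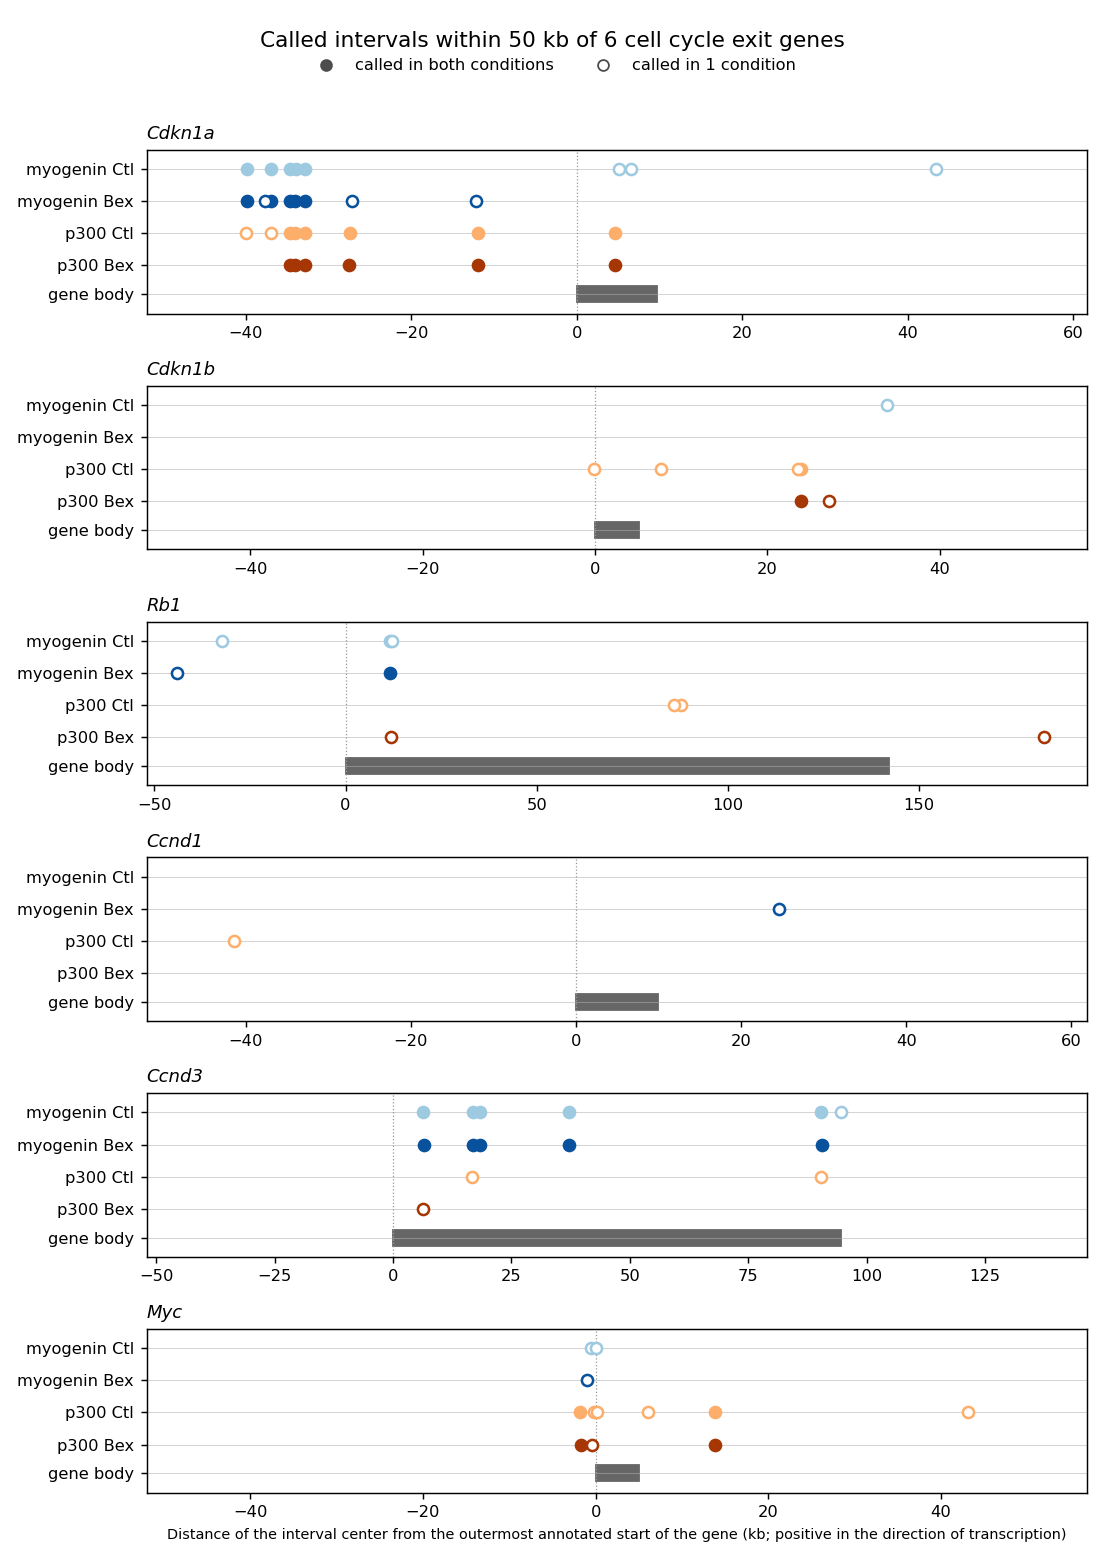
Position of each interval center relative to the outermost annotated start of its gene (horizontal axis, kb, positive in the direction of transcription) for the 6 genes with intervals, 1 line per list, filled where called in both conditions. Shared myogenin intervals lie upstream of Cdkn1a and within Ccnd3 and Rb1, and Myc has none.

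Cdkn1a (ENSMUSG00000023067.7, chr17:29227924-29237667, + strand, 3 annotated coding starts), which encodes p21, held 8 myogenin intervals in Ctl, 8 in Bex, 8 p300 intervals in Ctl and 6 in Bex. Among protein-coding genes, 0.514% had at least as many myogenin intervals in Ctl and 0.384% in Bex, and 3.19% and 1.09% had at least as many of p300. Most lay in a cluster that began about 40 kb before the outermost start. Sites, made by joining overlapping intervals of any list, numbered 13 here, of which 3 held all 4 lists. Over the 8 genes 3 of 42 sites did so (7.14%), over the series 3.14% of 30106, and 5.51% of protein-coding genes had such a site within 50 kb.

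The 5 shared myogenin regions of Cdkn1a were centered at -39.9, -37.0, -34.6, -34.0 and -32.8 kb in both lists. Their centers in Ctl and Bex stood 14, 10, 3, 8 and 8 bp apart. Shared regions overlap by definition, which limits how far apart their centers can lie. At -34.6 kb the interval was 289 bp long in Ctl and 307 bp in Bex, and at -34.0 kb it was 509 and 429 bp. The interval of 509 bp was the longest myogenin interval near the 8 genes, and it held 4 E-boxes, 22 to 47 bp apart, in both conditions. In the printed stretch at -34.0 kb these are 3 copies of CAGCTG followed by 1 of CACCTG.

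p300 was called with myogenin at -34.6, -34.0 and -32.8 kb in both conditions, and these were the 3 sites that held all 4 lists. At the 2 more distal sites it was called only in Ctl, in an interval of 330 bp at -40.0 kb and of 248 bp at -36.9 kb. The nearest p300 interval in Bex to the -39.9 kb myogenin interval was centered 5291 bp away. Thus 5 myogenin intervals overlapped p300 in Ctl and 3 in Bex. Whether p300 tags at the distal sites fell or only missed the peak threshold cannot be read from positions.

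**Figure D3:**
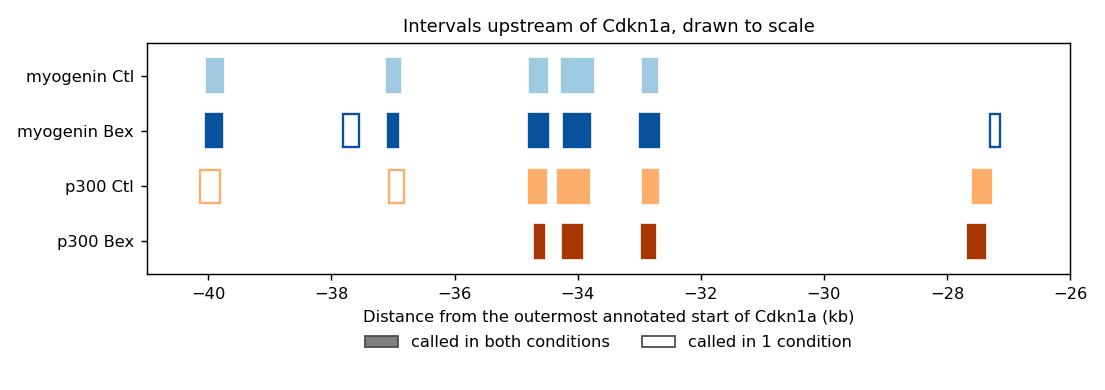
Intervals of the cluster upstream of the outermost start of Cdkn1a, drawn to scale (horizontal axis, kb), with filled boxes for intervals called in both conditions of a factor and open boxes for those called in 1. All 4 lists coincide at -34.6, -34.0 and -32.8 kb, and p300 at -40.0 and -36.9 kb was called only in Ctl.

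Other annotated starts lie near this cluster. The start of Srsf3, which encodes a splicing factor, was nearer to it than any Cdkn1a start, at 18.3 to 25.5 kb. The sites at -32.8 kb lay in an exon of Gm16197, a lincRNA on the - strand at chr17:29194419-29215906, and for that reason their sequence is not printed. The shared p300 intervals at -11.9 kb were centered 121 bp from the Gm16197 start in Ctl and 82 bp in Bex, and a myogenin interval unique to bexarotene at -12.2 kb was 207 bp from it. Which gene any of these sites acts on was not measured.

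Besides these, p300 was shared at -27.4 kb (-27.5 kb in Bex) and in intron 1 at 4.59 kb (4.57 kb in Bex), neither with a myogenin interval of the same condition. Myogenin unique to bexarotene was called at -37.7 kb (252 bp, chr17:29190119-29190370), at -27.2 kb and at -12.2 kb, none of them overlapping p300 Bex. A gap of 79 bp separated the interval at -27.2 kb from the nearest p300 Bex interval. Myogenin unique to control was called in intron 1 at 5.1 kb and 6.55 kb and downstream at 43.4 kb, where the start of Rab44 is 702 bp away. The interval at 6.55 kb lay 674 bp before the most downstream annotated start of Cdkn1a and held 1 CACCTG, as its printed sequence shows. Around Cdkn1a, then, the 3 myogenin intervals unique to bexarotene were upstream of the gene and the 3 unique to control in or behind it.

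Cdkn1b (ENSMUSG00000003031.8, chr6:134870419-134875531, + strand), which encodes p27, had p300 intervals but little myogenin. p300 was called 4 times in Ctl and 2 times in Bex, and 14.3% and 14.7% of protein-coding genes had at least as many. The only shared region was 23.9 kb downstream of the start, at chr6:134894225-134894422 in Ctl and chr6:134894266-134894423 in Bex. Unique to control were intervals at -0.153, 7.6 and 23.6 kb, each at the smallest length of the list, and unique to bexarotene was 1 at 27.1 kb. The interval at -0.153 kb covers the promoter stretch printed above, which holds no E-box. Myogenin was called only in Ctl, at 33.8 kb with 2 E-boxes 48 bp apart, and 0 intervals of the Bex list fell in the window. That interval was nearer to the start of Apold1, at 27.8 kb.

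Cdkn1c (ENSMUSG00000037664.6, chr7:150644255-150646955, - strand), which encodes p57, had 0 intervals of each list within 50 kb. Of the 3 CDK inhibitor genes of the Cip/Kip family, myogenin was therefore called in both conditions only around Cdkn1a. Of protein-coding genes, 17.5% had a myogenin interval called in both conditions.

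Rb1 (ENSMUSG00000022105.6, chr14:73583480-73725629, - strand) spans 142.0 kb, which gives it the longest window. It held 3 myogenin intervals in Ctl and 2 in Bex, and 2 p300 intervals in each, and 7.51%, 15.6%, 34.2% and 14.7% of protein-coding genes had at least as many. Myogenin was shared in intron 2 at 11.7 kb, in an interval of 263 bp in Ctl (chr14:73713760-73714022) and of 265 bp in Bex (chr14:73713773-73714037), with centers 14 bp apart. p300 was called at this site only in Bex, at chr14:73713771-73713928, in an interval of the smallest length. The stretch common to the 3 lists holds 1 CAGCTG.

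The other intervals around Rb1 were called in 1 condition. Myogenin unique to control lay in intron 2 at 12.2 kb, 247 bp from the shared interval of Bex, and at -32.3 kb. Myogenin unique to bexarotene lay at -44.0 kb, inside the Itm2b gene. The start of Itm2b was the nearest coding start to the intervals at -32.3 and -44.0 kb, at 27.2 and 15.4 kb. Both p300 intervals of Ctl lay in intron 17, which contains the gene Lpar6, a receptor gene on the other strand, and 1 of them was 232 bp from the Lpar6 start. The second p300 interval of Bex lay 92 bp from a start of Rcbtb2 downstream of Rb1. So 3 of the 4 p300 intervals assigned to Rb1 by the rule were nearer to the start of another gene.

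Among the D cyclins, Ccnd3 stood apart in its number of myogenin intervals. Ccnd1 (ENSMUSG00000070348.4, chr7:152115836-152125774, - strand) had 1 myogenin interval, unique to bexarotene, at chr7:152101106-152101273, which was 104 bp from the start of the neighboring gene Oraov1. Its 1 p300 interval was unique to control, at -41.4 kb and 222 bp long. Of protein-coding genes, 33.0% had at least as many myogenin intervals in Bex and 53.7% at least as many p300 intervals in Ctl. Ccnd2 (ENSMUSG00000000184.9, chr6:127075797-127101066, - strand) had 0 intervals of each list. Neither gene thus had an interval called in both conditions, which is the more common state. Only 17.5% of protein-coding genes had a shared myogenin interval and 27.7% a shared p300 interval.

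Ccnd3 (ENSMUSG00000034165.8, chr17:47642000-47736632, + strand, 2 annotated coding starts) held 6 myogenin intervals in Ctl and 5 in Bex, and 1.48% and 2.08% of protein-coding genes had at least as many. Its p300 intervals, 2 in Ctl and 1 in Bex, were matched or exceeded in 34.2% and 35.2% of genes. All of the 5 myogenin intervals of Bex were shared, and each of the 11 had its nearest coding start in Ccnd3 itself. In contrast to Cdkn1a, the intervals lay inside the gene, which is 94.6 kb long.

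In intron 1 of the longest transcript, myogenin was shared at 6.4, 16.9, 18.4 and 37.1 kb. At 6.4 kb the interval was 226 bp long in Ctl and 238 bp in Bex, with 3 E-boxes in both. At 16.9 kb it was 391 and 481 bp, with 4 E-boxes in both, and at 18.4 kb 323 and 257 bp, with 4 and 3. At 37.1 kb it was 226 and 268 bp with 2 E-boxes. Every shared myogenin interval in this intron thus held at least 2 E-boxes, with their smallest gap between 10 and 48 bp.

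The shared region in intron 4 was the least alike between conditions. The interval of Ctl was 372 bp long (chr17:47732225-47732596) and that of Bex 168 bp, the smallest length (chr17:47732556-47732723), and they overlapped by 41 bp with centers 229 bp apart. They lay 1.99 and 2.22 kb after the downstream start of Ccnd3. A myogenin interval unique to control covered the 3′ UTR exon at chr17:47736522-47736693, where the gene Bysl overlaps on the other strand.

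p300 was called at 3 of the 5 shared myogenin regions of Ccnd3 but at none of them in both conditions. At 6.29 kb it was unique to bexarotene (214 bp), and at 16.8 kb (206 bp) and 90.4 kb (252 bp) it was unique to control. At 18.4 and 37.1 kb it was not called. This differs from the Cdkn1a cluster, where 3 regions had p300 in both conditions, and the difference was not tested.

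Myc (ENSMUSG00000022346.8, chr15:61816946-61821929, + strand, 5 annotated coding starts) had no shared myogenin region, and its myogenin intervals lay at the promoter. In Ctl myogenin was called at -548 bp (chr15:61816313-61816484) and at 55 bp in the 5′ UTR exon (chr15:61816916-61817087), and in Bex at -980 bp (chr15:61815883-61816050). The Bex interval and the nearer Ctl interval were separated by 262 bp. All 3 had the smallest length of their list, and the 2 printed intervals hold no E-box, whereas that at 55 bp held 1. Of protein-coding genes, 14.9% had at least as many myogenin intervals in Ctl and 33.0% in Bex.

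p300 around Myc was called 6 times in Ctl and 3 times in Bex, and 6.61% and 7.01% of protein-coding genes had at least as many. It was shared at -1.77 kb (-1.68 kb in Bex) and at 13.8 kb, where the intervals of 565 bp in Ctl and 531 bp in Bex were the longest p300 intervals near the 8 genes and held no E-box. Unique to control were intervals at -174 bp, 186 bp, 6.04 kb and 43.1 kb. Unique to bexarotene was 1 at -412 bp, whose printed sequence holds a CAGCTG and a CACCTG 3 bp apart. Only the interval at 186 bp overlapped myogenin of its own condition, the Ctl interval at 55 bp. Near the start, both factors were thus called at different positions in the 2 conditions, within 1 kb of it and in intervals of the smallest length.

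**Figure D4:**
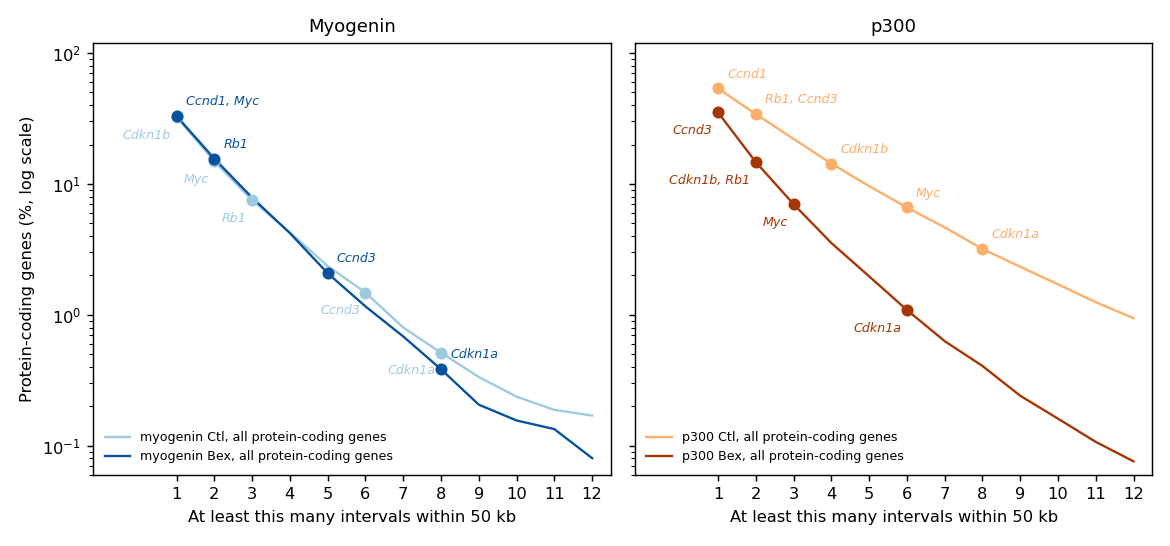
Share of all 22380 protein-coding genes (vertical axis, %, log scale) with at least the number of intervals on the horizontal axis within 50 kb, for myogenin (left) and p300 (right), with the genes of the set that have an interval marked at their own count. Cdkn1a lies farthest to the right in each list, at 0.514% and 0.384% for myogenin and 3.19% and 1.09% for p300, and gene length was not matched.

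Across the 8 genes, 11 of 20 myogenin intervals in Ctl were called in both conditions (55.0%, 34.2 to 74.2) and 11 of 17 in Bex (64.7%, 41.3 to 82.7), against 50.6% and 45.1% of the whole lists. Of p300 intervals, 9 of 23 in Ctl (39.1%, 22.2 to 59.2) and 9 of 14 in Bex (64.3%, 38.8 to 83.7) were shared, against 32.7% and 79.7%. All of these whole-list shares lay within the Wilson intervals.

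Myogenin overlapped p300 of the same condition in 8 of 20 intervals in Ctl (40.0%, 21.9 to 61.3) and 5 of 17 in Bex (29.4%, 13.3 to 53.1), beside 33.0% and 25.6% of the whole lists. With a window of 25 kb the shares were 25% in Ctl and 22.2% in Bex. Among intervals longer than the smallest of their list they were 58.3% and 27.3%. The genes with such an overlap were Cdkn1a, Ccnd3 and Myc in Ctl and Cdkn1a, Rb1 and Ccnd3 in Bex, 3 of the 8 in each. Of protein-coding genes, 11.9% had a myogenin interval that overlapped p300 in Ctl and 9.68% in Bex, and 11.9% and 9.69% had a p300 interval that overlapped myogenin. Seen from p300, 8 of 23 intervals in Ctl overlapped myogenin (34.8%, 18.8 to 55.1), whereas 8.79% of the whole list did, which lies below the Wilson interval. In Bex it was 5 of 14 (35.7%, 16.3 to 61.2) against 18.5%. Of the overlapping p300 intervals, 5 of the 8 in Ctl and 3 of the 5 in Bex were at Cdkn1a. The overlap of p300 with myogenin was therefore carried largely by 1 gene.

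An E-box within 50 bp of the center was found in 13 of 20 myogenin intervals in Ctl (65.0%, 43.3 to 81.9) and 11 of 17 in Bex (64.7%, 41.3 to 82.7), beside 48.1% and 60.6% of the whole lists. For p300 it was 4 of 23 in Ctl (17.4%, 6.98 to 37.1) and 6 of 14 in Bex (42.9%, 21.4 to 67.4), beside 19.7% and 25.4%. Of the 6 in Bex, 4 were at Cdkn1a, and with a window of 25 kb the p300 shares were 13.3% in Ctl and 22.2% in Bex. The p300 share in Ctl depended on the distance allowed: within 100 bp it was 43.5% in Ctl and 57.1% in Bex, and over the whole interval 39.1% and 57.1%. Over the whole interval, the p300 Ctl list held an E-box in 51.8% of shared and 31.5% of control-only intervals. For the p300 Bex list these shares were 42.3% of shared and 34.4% of bexarotene-only intervals. The shared myogenin regions of the 8 genes all held an E-box somewhere in the interval, in both lists. Of the intervals called in 1 condition, 6 of the 9 unique to control and 2 of the 6 unique to bexarotene did. Over the whole lists, 87.6% of shared intervals in Ctl and 89.3% in Bex held one, and the shares were 42.2% among the intervals unique to control and 67.3% among the bexarotene-only intervals. Shared intervals were also longer there, with medians of 226 bp in Ctl and 254 bp in Bex against 172 and 168 bp, and the part of length in these shares was not tested. In whole intervals, CAGCTG accounted for 25 of 34 E-boxes in myogenin Ctl and 19 of 26 in Bex, and the remainder were CACCTG or CAGGTG. In the whole myogenin lists CAGCTG made up 68.8% and 71.3%.

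**Figure D5:**
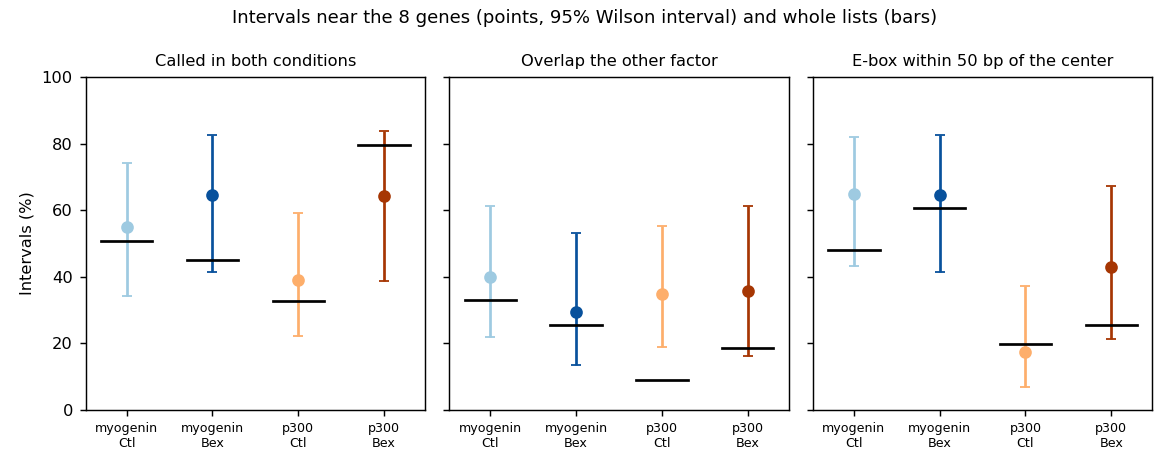
Share of intervals near the 8 genes (points, vertical axis in %, with 95% Wilson intervals) called in both conditions, overlapping the other factor in the same condition, and with an E-box within 50 bp of the center, beside the share of the whole list (black bars). The whole-list share lies outside the interval only for the overlap of p300 Ctl with myogenin, at 8.79% beside 34.8%.

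The spacing of E-boxes was described after the intervals had been seen. Of myogenin intervals, 9 of 20 in Ctl (45.0%, 25.8 to 65.8) and 7 of 17 in Bex (41.2%, 21.6 to 64.0) held 2 or more E-boxes, beside 33.2% and 41.1% of the whole lists. A pair no more than 10 bp apart was found in 1 myogenin interval of Ctl, at 18.4 kb of Ccnd3, and 0 of Bex, beside 6.33% and 7.74%. The pair 3 bp apart before Myc was in a p300 interval of Bex, where no myogenin interval of that condition overlapped it. The multiple E-boxes of Cdkn1a and Ccnd3 were thus mostly more widely spaced, at 13 bp or more.

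Other short sequences were searched, on either strand, in the 100 bp to each side of the center. GGGCGG, the GC box, was found in 5 of 20 (25%, 11.2 to 46.9) and 5 of 17 (29.4%, 13.3 to 53.1) myogenin intervals and in 7 of 23 (30.4%, 15.6 to 50.9) and 4 of 14 (28.6%, 11.7 to 54.6) p300 intervals, in Ctl and Bex respectively. The whole lists held it in 11.0%, 7.23%, 9.63% and 11.0%, each below the Wilson interval, although overlapping intervals of several lists share the same copies. TGACTCA or its reverse complement TGAGTCA, the AP-1 site, was in 0 of 20 and 0 of 17 myogenin intervals, with upper Wilson bounds of 16.1% and 18.4%, beside 10.5% and 12.6%. It was in 3 of 23 and 2 of 14 p300 intervals, beside 27.9% and 27.1%. TGTGGT, the core of Runx sites, was in 5 and 6 myogenin and 4 and 4 p300 intervals, beside 25.7%, 29.7%, 31.2% and 32.8% of the whole lists. GGAATG, a core of TEAD sites, was in 3 and 6 myogenin and 2 and 1 p300 intervals, beside 16.7%, 19.2%, 18.8% and 19.0%.

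The other genes of the pathway comprised 47 genes: INK4 inhibitors, further pocket proteins, E2F factors, CDKs and their cyclins, partners and relatives of Myc, and further regulators of growth arrest and of the checkpoints. Of these, 26 (55.3%) had a myogenin interval within 50 kb in Ctl and 26 (55.3%) in Bex, 40 (85.1%) had a p300 interval in Ctl and 23 (48.9%) in Bex, beside 32.4%, 33.0%, 53.7% and 35.2% of protein-coding genes. All 4 lists were present at 14 (29.8%), beside 14.7%. These were the E2F genes E2f1, E2f2, E2f4 and E2f6, the kinase genes Cdk2 and Cdk5, the cyclin A gene Ccna2, the Cdk subunit gene Cks1b, the Myc relatives Mycl1 and Mxi1, the p53 ubiquitin ligase gene Mdm2, and Gadd45a, Gadd45b and Gadd45g, which encode growth arrest proteins. Mycn was the only one of the 47 with no interval of any list.

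Within this list, Mycl1 and Gadd45b came closest to Cdkn1a. Mycl1 had 5 myogenin intervals in Ctl, 8 in Bex, 5 p300 intervals in Ctl and 4 in Bex, and Gadd45b had 6, 8, 4 and 3. E2f4, which acts with the pocket proteins in repression, had 7 myogenin intervals in Ctl and 3 in Bex, with 1 p300 interval in each condition. All of the 5 Ctl myogenin intervals of Mycl1 and 4 of the 6 of Gadd45b were shared with Bex.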

How the data were processed

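Myogenin and p300 ChIP-seq intervals of C2C12 cells were taken from the lists deposited for 4 of the 8 samples. The input and H3K27me3 samples were not analysed here. The authors aligned the myogenin reads with BWA and the p300 reads with Bowtie to mm9, filtered duplicate reads (Picard), and ran HOMER on every library to call peaks. The factors thus differ in aligner as well as in antibody. They also differ in the model of sequencer that the paper names, and each has its own input sample. The deposited lists give chromosome, start and end and no tags or scores, so depth is unknown from them and the authors' peak threshold could not be varied. Starts were read as counted from 0, since merged peaks in the study's source data begin 1 base later, and were rewritten counted from 1. If that reading is wrong, each start moves and each length changes by 1 bp.

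Genes, starts and introns came from GENCODE (release vM1) and sequences from the mm9 genome; intron and exon numbers follow the coding transcript of longest span. Intervals overlapping by at least 1 bp were called shared. The 95% Wilson interval given with a share is for counting error alone. With 1 library per condition no test was made. Python 3.11.15, numpy 2.4.6, pandas 2.3.3, scipy 1.17.1, pysam 0.24.0 and matplotlib 3.10.9 were used. The functions were tested on simulated data and recovered all 6 of 6 sets of known answers.

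Every one of the 8 genes is described, whether or not it had intervals. Genes of the wider list are named where all 4 lists or none had an interval, and a neighbor where its start was nearer than that of the gene. The non-coding neighbors, the E-box spacing and the whole-list shares by class were added after the intervals were seen. The 8 genes, the gene lists and the motifs were chosen with earlier results of these data known. Alternatives were windows of 25 and 100 kb, other overlap rules, only intervals longer than the smallest of their list, other E-box and start distances, intervals nearest to the gene alone, and leaving out each of the 8 genes in turn.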

Additional observations from a re-analysis of the deposited data

How the results depend on the processing

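Of 184 alternative values for 28 results, at least 16 could not move, since they leave out Cdkn1c or Ccnd2, which have no interval. Of the remaining 168, 129 moved by less than the spread allowed (1.5 times for a count, the Wilson interval for a share) and 39 by more, and since no result has a test, no call could change. The 129 include further values that could not move, where the gene left out had no interval of that kind in that list. Examples are the counts within 1 kb of a start without Rb1, Ccnd1 or Ccnd3. The 129 are therefore not a measure of stability. With a window of 25 kb, the myogenin intervals numbered 12 in Ctl and 9 in Bex and the p300 intervals 15 and 9, with 6 shared and 3 bexarotene-only myogenin regions and 5 shared p300 regions. Cdkn1a then had 2 and 1 myogenin intervals in place of 8 and 8. With 100 kb, the density of myogenin Ctl was 1.16 per 100 kb and 14 p300 regions were shared. Only intervals longer than the smallest of their list left 12, 11, 15 and 6 intervals, in the order myogenin Ctl, myogenin Bex, p300 Ctl and p300 Bex. They left 3 genes with myogenin Ctl, 3 with myogenin Bex and 3 with p300 Bex, an E-box share of 90.9% in myogenin Bex, 3 control-only and 2 bexarotene-only myogenin regions, and 5 shared and 1 bexarotene-only p300 regions. Keeping only intervals whose nearest coding start was that of the gene left 12 and 9 myogenin intervals (2 and 2 at Cdkn1a), with 6 shared and 3 bexarotene-only regions. An E-box anywhere in the interval was found in 85.0% of myogenin Ctl and 39.1% of p300 Ctl intervals, and within 100 bp of the center in 85.0% and 43.5%. Within 2 kb of a start there were 6 p300 Ctl and 3 p300 Bex intervals. Without Cdkn1a 12, 9, 15 and 8 intervals remained. Without Myc, intervals within 1 kb of a start fell to 1, 0, 1 and 0. No paired analysis was possible because each condition has 1 library and the labels carry no replicate numbers. The cause of these shifts was not tested beyond what each alternative leaves out by construction.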
